A study of Mus musculus with 7 samples.

Results

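The axon guidance ligands and receptors of mouse embryonic fibroblasts were examined: the ephrins and their Eph receptors, the semaphorins with their plexin and neuropilin receptors, the Slits and their Robo receptors, the netrins and their Unc5, Dcc and neogenin receptors, and the growth cone protein gene Gap43. Members were matched by gene symbol, although the set was chosen with earlier results of these data known. Of the 19937 genes with a probe set of a single symbol, 71 matched. They were covered by 75 probe sets; for Epha10, Ephb1, Sema4d and Unc5d, which had several, the probe set with the highest mean was used. Unc5cl matched by its name, although its product is a death-domain signalling protein and not a netrin receptor.

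Total RNA was measured on 7 Affymetrix whole-transcript arrays. The 2 knockout arrays came from clones 1 and 2 of fibroblasts from a tenascin-C (Tnc) knockout mouse, and the 2 knockdown arrays from clones 1 and 2 of wild-type fibroblasts that stably carried an shRNA against Tnc. The 3 wild-type arrays came from clones 1, 2 and 3 of fibroblasts from a wild-type mouse. All cells were spontaneously immortalised, 50000 were plated per well, and RNA was taken after 2 days in DMEM with 10% fetal calf serum. No group with a control hairpin was analysed here, so stable hairpin expression and Tnc depletion cannot be told apart in the knockdown clones. Separate animals are not stated for the clones of any group, so the p-values reflect variation between clones, and the number of arrays limits the precision. Values are log2 signals, and differences are taken between arrays for a given probe set. Levels of genes are also set against the median or 25th percentile of each array, but signals are not ranked between genes.

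Guidance cues are secreted or membrane-bound proteins that steer growth cones and migrating cells by attraction or repulsion. Ephrins signal through Eph receptor kinases at cell contacts, semaphorins through plexins with or without a neuropilin, Slits through Robos, and netrins through Dcc, neogenin and Unc5 receptors, and each system ends on the actin cytoskeleton. Outside the nervous system the same proteins act in connective tissue, vessels and tissue boundaries. Tenascin-C, the product of the gene targeted here, is a matrix glycoprotein that modulates adhesion of fibroblasts and the growth of neurites.

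Promoter sequences are shown for 5 members, each a receptor or ligand whose 4 knockout and knockdown arrays all lay to the same side of the 3 wild-type arrays. Plxnb2 and Plxnd1 lay higher, and Epha1, Robo1 and Sema7a lower. Plxna1 and Sema3f also lay higher and Gap43 lower, but their windows are not shown, so the 5 are not the full set. Each line gives the 250 bases upstream of the most upstream annotated start, 5′ to 3′ on the strand of the gene, from RefSeq on GRCm38.p6. Capitals mark the GC box (GGGCGG), the E-box (CANNTG) and the TATA box (TATAAA), each searched on both strands, so that CCGCCC is a GC box on the opposite strand. The windows lie at chr15:89180789-89181038 on the minus strand, chr6:115995006-115995255 on the minus strand, chr6:42373269-42373518 on the minus strand, chr16:72662899-72663148 on the plus strand and chr9:57939862-57940111 on the plus strand.
Plxnb2: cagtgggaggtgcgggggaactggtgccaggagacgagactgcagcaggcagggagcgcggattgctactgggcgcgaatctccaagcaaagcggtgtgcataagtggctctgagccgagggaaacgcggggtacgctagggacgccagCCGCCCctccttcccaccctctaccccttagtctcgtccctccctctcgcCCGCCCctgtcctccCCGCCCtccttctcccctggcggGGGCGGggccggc
Plxnd1: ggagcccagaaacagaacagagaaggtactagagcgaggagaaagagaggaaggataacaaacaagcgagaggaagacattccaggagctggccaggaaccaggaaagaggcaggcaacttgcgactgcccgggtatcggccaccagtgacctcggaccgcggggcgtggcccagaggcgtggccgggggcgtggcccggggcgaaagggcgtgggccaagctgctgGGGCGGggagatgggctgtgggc
Epha1: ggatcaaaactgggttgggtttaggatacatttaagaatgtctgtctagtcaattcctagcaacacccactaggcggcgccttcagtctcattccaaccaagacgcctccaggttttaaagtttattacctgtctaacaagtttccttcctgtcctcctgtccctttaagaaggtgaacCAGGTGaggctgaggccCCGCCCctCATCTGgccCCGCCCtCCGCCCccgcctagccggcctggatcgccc
Robo1: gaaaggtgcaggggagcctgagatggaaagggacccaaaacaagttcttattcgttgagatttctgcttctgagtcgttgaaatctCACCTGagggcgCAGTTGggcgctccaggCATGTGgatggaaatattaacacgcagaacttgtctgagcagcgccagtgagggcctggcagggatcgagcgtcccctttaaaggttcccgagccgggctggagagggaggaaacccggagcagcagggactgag
Sema7a: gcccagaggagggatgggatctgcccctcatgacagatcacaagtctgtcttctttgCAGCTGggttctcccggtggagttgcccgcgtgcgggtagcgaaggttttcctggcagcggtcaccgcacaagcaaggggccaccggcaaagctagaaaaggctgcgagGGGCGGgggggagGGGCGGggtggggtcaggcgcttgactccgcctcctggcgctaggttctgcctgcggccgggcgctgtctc
Plxnb2 had 4 GC boxes and Plxnd1 had 1, neither had an E-box, Epha1 had 3 GC boxes and 2 E-boxes, Robo1 had 3 E-boxes and no GC box, and Sema7a had 2 GC boxes and 1 E-box. None of the 5 windows held the letters of the TATA box.

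The promoter table held 60 of the 71 members, with 76 start windows. Of these windows 72.4% held a GC box, against 42.6% of the 21263 windows of protein-coding genes, 47.4% held an E-box, against 62.8%, and 2.63% held a TATA box, against 11.6%. The median GC content of the members' windows was 64.4%, against 55.6% for protein-coding genes. GC-rich windows hold GC boxes more often and AT-rich motifs less often by composition alone, and these matches describe letters, not sites of binding.

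Array medians lay between 5.38 and 5.49 and 25th percentiles between 3.98 and 4.05, and pairs of arrays correlated at 0.979 to 0.99. Tnc, the targeted gene, had signals of 8.05 and 8.51 in knockout and 7.33 and 6.52 in knockdown, against 10.88, 11.41 and 11.38 in wild type. It passed the test in both groups: Tnc fell by 2.95 ± 0.295 (SE, log2) in knockout with a limma adjusted p of 0.042, and by 4.30 ± 0.295 in knockdown with an adjusted p of 0.0339. Both calls were lost when any single array was left out. Whether its probe set falls inside the deletion was not determined here, so the signal in knockout is no measure of intact mRNA. Xist was high (8.80) on knockout array 2 alone, and the Y-linked genes were low on knockout array 2 and knockdown array 2, so clones of a group differed in sex-chromosome transcripts. Of the X-linked members, Efnb1 was lowest on knockout array 2 (7.13, against 7.70 to 8.32 on the other 6 arrays), while Plxna3 and Plxnb3 were not. The part of this difference between clones in the results was not tested.

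The fibroblast label was borne by 15 of 16 fibroblast markers above the array median on every array. Of the markers of other cells, 4 of 16 neuronal, 4 of 12 glial and neural crest, 1 of 11 endothelial, 2 of 10 epithelial, 1 of 10 macrophage and blood, 3 of 10 skeletal muscle and 4 of 8 pericyte genes did so. The neuronal markers had median log2 signals of 5.33 and 5.16 on the knockout arrays and 5.40 and 5.34 on the knockdown arrays, against 5.40, 5.48 and 5.35 in wild type. Of the neuronal markers, Snap25, Elavl3 and Dcx lay below the array median on every array, and Rbfox3 lay between 5.34 and 5.79. These were named after their values were seen, and the 4 neuronal markers above the median are not all named. Uchl1, which is above the median on every array, was uneven, at 9.40 and 7.21 in knockout and 6.65 and 5.52 in knockdown, against 7.21, 7.29 and 7.21 in wild type (knockout minus knockdown 2.22 ± 0.711 SE, adjusted p = 0.201). Stmn2 differed from wild type by -0.76 ± 0.421 in knockout and -0.70 ± 0.421 in knockdown, with 5.67 on wild-type array 2 and 3.89 to 4.45 elsewhere. No gene of any marker list passed in any comparison. At an unadjusted p under 0.05 stood 8 of 16 fibroblast markers in knockout (50.0%, 6 higher and 2 lower), where 12.8% of all genes did, and 3 in knockdown (18.8%, all higher), where 14.1% did, as well as 1 of 13 tested neuronal markers in knockout and 0 in knockdown. Pdgfra, a fibroblast receptor kinase, differed by -1.42 ± 0.305 in knockout (SE, log2; adjusted p = 0.152), and the collagen gene Col1a1 by 0.69 ± 0.195 (adjusted p = 0.239). The part of these markers in the members' differences was not tested. In bulk cultures, fewer cells of a type and less RNA per cell cannot be told apart.

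The members' signals were set against the median of each array, which is not a threshold of detection. Of the 71 members, 43 (60.6%) lay above the array median on every array, against 53.8% of all genes, and 69 passed the filter for testing, which asked for a signal above the 25th percentile on at least 2 arrays. All 3 ephrin-B ligands, both neuropilins, 7 of 9 plexins, 4 of 5 ephrin-A ligands, 5 of 7 class 3 semaphorins, 3 of 4 EphB receptors and 5 of 9 EphA receptors were above the median throughout. Among the class 4 to 7 semaphorins, which are mostly membrane proteins, 5 of 13 were, as were 2 of 3 Slits, 1 of 4 Robos, 2 of 4 netrins and 2 of 5 genes of the Unc5 group. Epha6 was at or below the 25th percentile on all 7 arrays and Epha5 exceeded it on 1, so neither was tested. The netrin receptor Dcc lay between 4.58 and 4.81 on the 7 arrays, below each array median, whereas its paralogue Neo1 (neogenin) lay above it on every array.

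**Figure D1:**
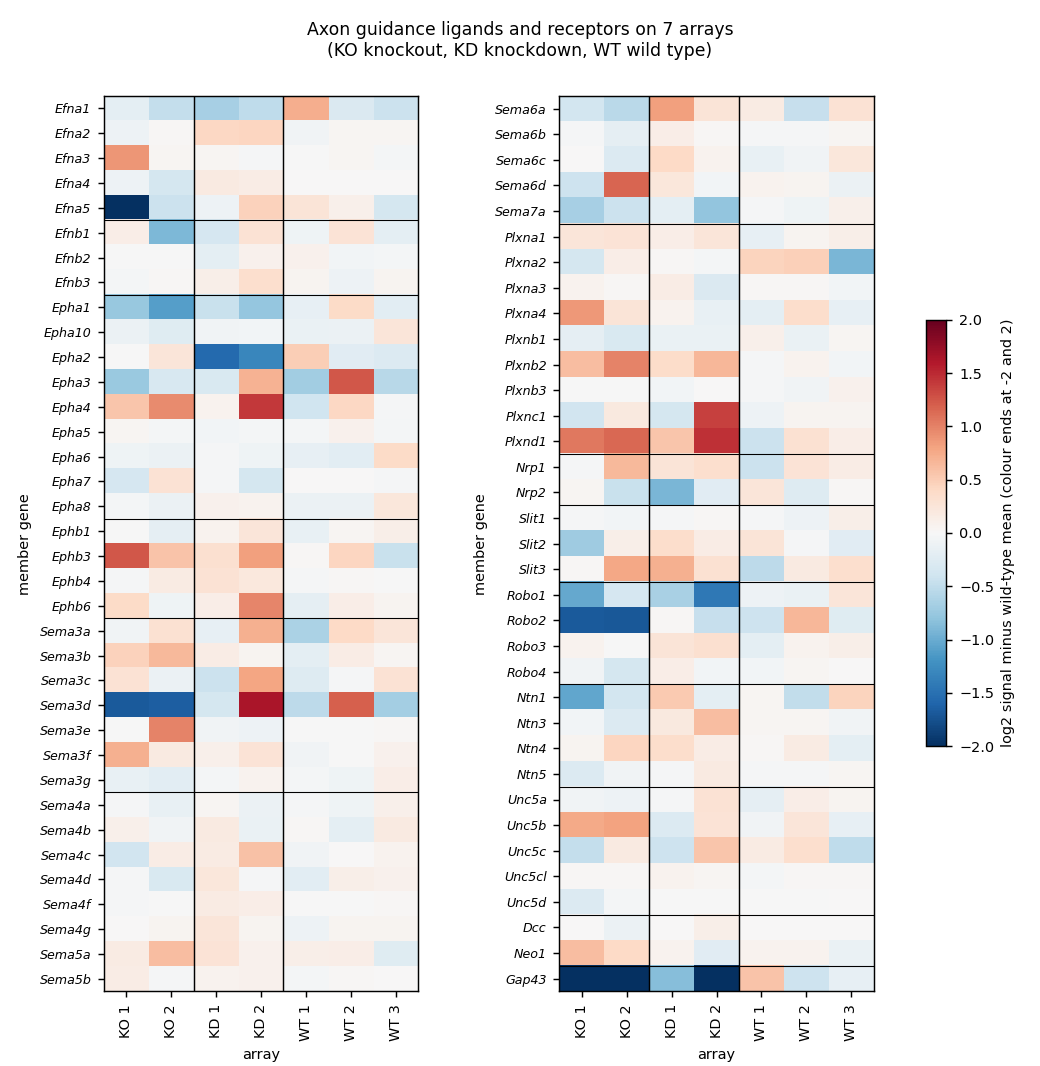
Log2 signal of each of the 71 members (rows, in 2 panels, ordered by role) on the 2 knockout, 2 knockdown and 3 wild-type arrays (columns), minus the wild-type mean of that gene; red is higher, blue is lower, and the colour ends at -2 and 2. Most members are pale throughout, and Gap43, Robo2, Sema3d and Epha2 are among the rows with strong blue.

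No member passed the threshold of an adjusted p under 0.05 over all 16801 tested genes in any comparison. That share is to be read against the background: 0.167% of all genes passed in knockout against wild type, 0.0179% in knockdown against wild type, 0.0298% when both deficient groups were averaged and set against wild type, and 0.375% in knockout against knockdown. Differences of the members are therefore given as values with their errors. Knockout and knockdown were both set against the same 3 wild-type arrays, so that a wild-type array that stands apart moves both values.

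Gap43 had the largest difference from wild type among the members in both groups. Gap43 (gene identifier 14432, probe set 10439514, chromosome 16) encodes a membrane-attached protein of growing axon tips. Its log2 signal was 5.82 and 6.21 on the knockout arrays and 9.47 and 5.73 on the knockdown arrays, against 10.90, 9.90 and 10.15 on the wild-type arrays. Both knockout arrays and knockdown array 2 were low, while knockdown array 1 lay just below the lowest wild-type array. The knockout mean was 19.7-fold below wild type (log2 change -4.30 ± 1.02 SE, adjusted p = 0.185), and the knockdown mean 6.59-fold below (-2.72 ± 1.02, adjusted p = 0.323). The fit shares 1 estimate of spread among the 3 groups, so the knockout error also holds the gap between the knockdown clones. Clones ranged over 0.383 in knockout, 3.744 in knockdown and 0.995 in wild type. Without knockdown array 2 the knockdown change was -0.85, and without knockdown array 1 it was -4.59.

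In the plexins, the receptors of semaphorins, 3 members lay higher on all 4 deficient arrays than on every wild-type array. Plxnb2 (gene identifier 140570, probe set 10431424, chromosome 15), a receptor of class 4 semaphorins, had log2 signals of 9.94 and 10.32 in knockout and 9.70 and 9.98 in knockdown, against 9.30, 9.40 and 9.27 in wild type. The wild-type arrays were close together, and no deficient array reached down to them. In knockout Plxnb2 exceeded wild type 1.75-fold, with a log2 change of 0.81 ± 0.144 (SE) and an adjusted p of 0.116. In knockdown it exceeded wild type 1.43-fold, with a log2 change of 0.52 ± 0.144 and an adjusted p of 0.22.

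Plxnd1 (gene identifier 67784, probe set 10547100, chromosome 6), the receptor of Sema3e in vessels, stood at 7.11 and 7.20 in knockout and 6.61 and 7.52 in knockdown, against 5.62, 6.36 and 6.18 in wild type. Its lowest deficient array was knockdown array 1, still above the highest wild-type array. The log2 change was 1.10 ± 0.321 in knockout and 1.01 ± 0.321 in knockdown (SE), with adjusted p of 0.25 and 0.262. The knockdown value lay between 0.55 and 1.46 with 1 array left out. Plxna1, a partner of neuropilins, showed a smaller difference, with 8.66 and 8.68 in knockout and 8.54 and 8.65 in knockdown, against 8.25, 8.46 and 8.53 in wild type. Knockdown array 1 and wild-type array 3 nearly touched for Plxna1, whose changes were 0.26 ± 0.104 and 0.18 ± 0.104 (SE).

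Other plexins did not share this pattern. Plxnb1, a receptor of Sema4d, stood at 6.10 and 5.97 in knockout and 6.15 and 6.15 in knockdown, against 6.38, 6.14 and 6.33 in wild type, and its knockout change was -0.24 ± 0.096 (SE, log2; adjusted p = 0.377). Plxna4 lay at 6.66 and 6.05 in knockout and 5.86 and 5.65 in knockdown, against 5.60, 6.15 and 5.64 in wild type, so the groups overlapped with wild type. Plxna2, Plxna3, Plxnb3 and Plxnc1 differed from wild type by -0.12 to 0.51 in either group. Of the 9 plexins, 4 had an unadjusted p under 0.05 in knockout (3 higher, 1 lower) and 2 in knockdown (both higher), where 12.8% of all genes had one in knockout (7.33% higher, 5.5% lower) and 14.1% in knockdown.

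The semaphorins, ligands of the plexins, held members on both sides. Sema3f, a repellent that binds neuropilin 2, had log2 signals of 7.43 and 6.90 in knockout and 6.82 and 6.99 in knockdown, against 6.64, 6.70 and 6.81 in wild type. The lowest knockdown array (6.82) and the highest wild-type array (6.81) nearly touched. The Sema3f change in knockout was 0.45 ± 0.167 (SE, adjusted p = 0.358) and ranged from 0.18 to 0.72 with 1 array left out.

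Sema7a (gene identifier 20361, probe set 10585778, chromosome 9), a membrane-anchored semaphorin that promotes outgrowth through integrins, lay lower. Its log2 signal was 6.10 and 6.35 in knockout and 6.58 and 5.98 in knockdown, against 6.76, 6.69 and 6.88 in wild type. All 4 deficient arrays were below all wild-type arrays, by 0.55 ± 0.188 (SE, log2) on average in knockout (a change of -0.55, adjusted p = 0.324) and 0.49 ± 0.188 in knockdown (a change of -0.49, adjusted p = 0.326). Without knockdown array 2 the knockdown change was -0.19.

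Sema3b, another secreted semaphorin, lay above wild type in knockout and overlapped with it in knockdown, at 6.22 and 6.41 in knockout and 5.92 and 5.82 in knockdown, against 5.57, 5.92 and 5.81 in wild type. Its changes were 0.55 ± 0.127 (SE, adjusted p = 0.171) in knockout and 0.10 ± 0.127 (adjusted p = 0.759) in knockdown. The secreted semaphorins Sema3a and Sema3c, both well above the array medians, overlapped between all groups. Their knockout changes were 0.12 ± 0.39 and 0.09 ± 0.371. Sema3e was high on 1 array, with 4.92 and 5.92 in knockout and 4.86 and 4.82 in knockdown, against 4.91, 4.92 and 4.95 in wild type. When knockout array 1 was left out, the remaining knockout array gave Sema3e an adjusted p of 0.0495 against wild type, a call that rests on 1 clone.

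Sema4f, a membrane semaphorin below the array median on every array, had a knockdown change of 0.15 ± 0.064 (SE, adjusted p = 0.371) with both arrays above wild type, and differed by -0.17 ± 0.07 between knockout and knockdown (adjusted p = 0.288).

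The neuropilins, co-receptors of class 3 semaphorins, overlapped with wild type in both groups. Nrp1 differed by 0.31 ± 0.272 in knockout and 0.30 ± 0.272 in knockdown (SE, log2), and Nrp2 by -0.21 ± 0.265 and -0.57 ± 0.265. Without knockout array 2 the Nrp1 knockout change was -0.024, and without knockdown array 1 the Nrp2 knockdown change was -0.23.

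Among the Eph receptors, Epha1 and Epha2 stood apart in different ways. Epha1 (gene identifier 13835, probe set 10544417, chromosome 6), an EphA kinase known from epithelia, had log2 signals of 5.40 and 5.06 in knockout and 5.72 and 5.38 in knockdown, against 5.99, 6.54 and 5.94 in wild type. Every deficient array was below every wild-type array, and knockout array 2 was lowest. The changes were -0.93 ± 0.225 (SE, adjusted p = 0.188) in knockout and -0.61 ± 0.225 (adjusted p = 0.317) in knockdown, at levels close to the array medians.

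Epha2 (gene identifier 13836, probe set 10509965, chromosome 4), a receptor of ephrin-A ligands in many cell types, was low in the knockdown clones. It stood at 8.72 and 8.97 in knockout and 7.16 and 7.42 in knockdown, against 9.21, 8.50 and 8.45 in wild type. The knockout arrays lay inside the wild-type range and both knockdown arrays lay more than 1 log2 unit below its lower end. Epha2 was 2.69-fold lower in knockdown than in wild type (-1.43 ± 0.249 SE, adjusted p = 0.134) and differed by 0.12 ± 0.249 in knockout (adjusted p = 0.862).

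Ephb3, a receptor of ephrin-B ligands, lay at 9.00 and 8.33 in knockout and 8.07 and 8.58 in knockdown, against 7.78, 8.19 and 7.31 in wild type. The knockout arrays exceeded all wild-type arrays (0.90 ± 0.325 SE, adjusted p = 0.341; 0.57 without knockout array 1 and 1.24 without knockout array 2), while knockdown array 1 fell within the wild-type range (0.56 ± 0.325). Ephb4, the receptor of ephrin-B2 in veins, had a knockdown change of 0.25 ± 0.085 (SE, adjusted p = 0.291) with arrays above wild type. Epha4 lay higher on average in both groups, by 0.75 ± 0.43 in knockout and 0.74 ± 0.43 in knockdown, with overlap in knockdown.

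Among the ephrins, Efna5 stood lower in knockout and Efna2 higher in knockdown. Efna5 (gene identifier 13640, probe set 10452419, chromosome 17), a ligand of EphA receptors, had log2 signals of 6.14 and 8.01 in knockout and 8.34 and 8.91 in knockdown, against 8.70, 8.54 and 8.10 in wild type. Knockout array 1 stood far below the rest and knockout array 2 just below the lowest wild-type array. The knockout change was -1.37 ± 0.541 (SE, adjusted p = 0.377), and it was -0.44 without knockout array 1. Efna2 lay at 6.19 and 6.32 in knockout and 6.71 and 6.72 in knockdown, against 6.22, 6.33 and 6.33 in wild type, higher by 0.42 ± 0.079 (SE, adjusted p = 0.162) in knockdown.

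Efna1 was high on wild-type array 1 (6.91), and its knockdown change was -0.59 ± 0.346 (SE, log2). Efnb3 had a knockdown change of 0.22 ± 0.099 (adjusted p = 0.396) with both arrays above wild type. Efnb2, the ligand of Ephb4, was nearly level at 9.15 and 9.15 in knockout and 8.96 and 9.25 in knockdown, against 9.25, 9.11 and 9.13 in wild type. Efna3 resembled Sema3e in standing high on a single array, with 5.54 on knockout array 1 and 4.64 to 4.71 on the other 6. With knockout array 2 left out, Efna3 had an adjusted p of 0.043 against wild type, again resting on 1 clone.

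Of the Robo receptors, which bind Slits, Robo1 was lower in both groups and Robo2 in knockout. Robo1 (gene identifier 19876, probe set 10436519, chromosome 16) had log2 signals of 5.95 and 6.64 in knockout and 6.33 and 5.55 in knockdown, against 6.87, 6.84 and 7.21 in wild type. No deficient array reached the lowest wild-type array, although the clones within each group were spread. Robo1 changes were -0.68 ± 0.299 (SE, adjusted p = 0.418) in knockout and -1.04 ± 0.299 (adjusted p = 0.229) in knockdown, and with 1 array left out they lay between -1.03 and -0.34 and between -1.43 and -0.65.

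Robo2 (gene identifier 268902, probe set 10440344, chromosome 16) stood at 5.15 and 5.13 in knockout and 6.87 and 6.38 in knockdown, against 6.42, 7.50 and 6.59 in wild type. Both knockout arrays lay below their array medians and below the other 5 arrays. Robo2 was 3.23-fold lower in knockout (-1.69 ± 0.335 SE, adjusted p = 0.133) and differed by -0.21 ± 0.335 (adjusted p = 0.823) in knockdown. Robo3 and Robo4 lay below the array median on all 7 arrays, and Robo3 had a knockdown change of 0.29 ± 0.11 (adjusted p = 0.322). Their ligands Slit2 and Slit3 were above it throughout, and both overlapped between the deficient groups and wild type, with Slit3 changes of 0.40 ± 0.336 in knockout and 0.51 ± 0.336 in knockdown (0.02 to 0.77 and 0.24 to 0.71 with 1 array left out).

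The netrin receptors Unc5b and Neo1 lay higher in knockout and overlapped with wild type in knockdown. Unc5b, a netrin receptor of vessels, had log2 signals of 8.95 and 9.02 in knockout and 7.93 and 8.48 in knockdown, against 8.13, 8.44 and 8.04 in wild type. Its knockout change was 0.78 ± 0.192 (SE, adjusted p = 0.193), and its knockdown change 0.00 ± 0.192. Neo1, a receptor of netrins and RGM proteins, stood at 9.56 and 9.34 in knockout and 9.01 and 8.71 in knockdown, against 9.01, 9.01 and 8.81 in wild type, a knockout change of 0.51 ± 0.129 (adjusted p = 0.204). For both receptors the knockout arrays exceeded all other arrays. Among the ligands, Ntn1 overlapped with wild type (-0.70 ± 0.361 in knockout, 0.16 ± 0.361 in knockdown) and Ntn3 was higher in knockdown (0.41 ± 0.144, adjusted p = 0.303). The Ntn1 knockout change was -0.36 without knockout array 1, and the Ntn3 knockdown change was 0.19 without knockdown array 2. Ntn4 had an averaged change of 0.25 ± 0.134 over both deficient groups, with overlap.

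**Figure D2:**
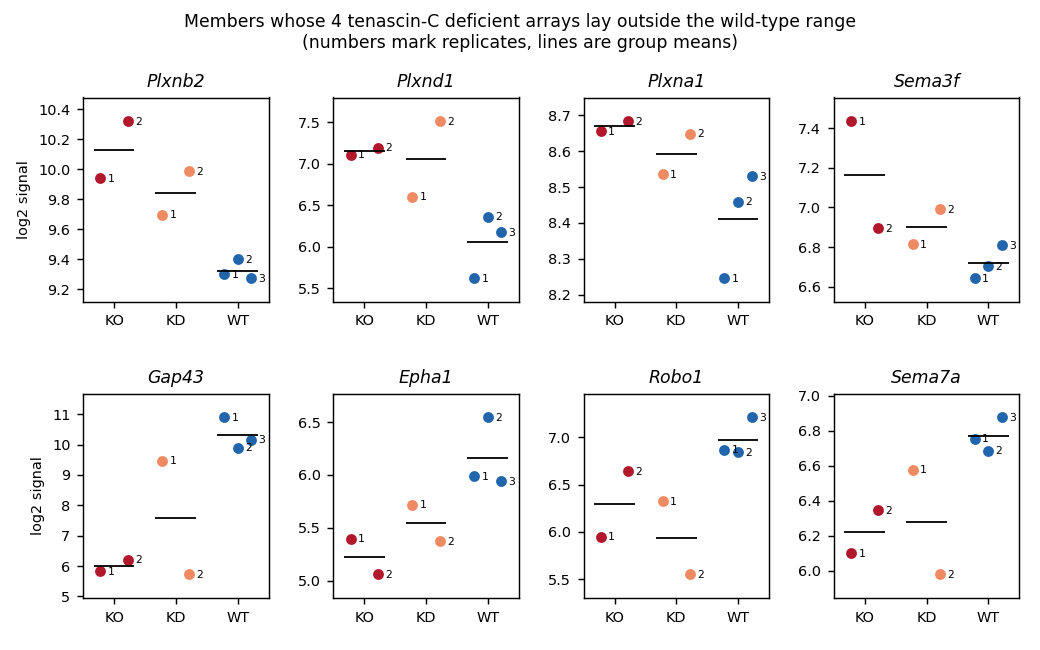
Log2 signal (vertical axis) of the 8 members whose 4 deficient arrays all lay on 1 side of the wild-type arrays, by group (KO knockout, KD knockdown, WT wild type); numbered points are the clones and bars the group means. Plxnb2 lies between 9.70 and 10.32 on the deficient arrays, above wild type at 9.27 to 9.40, and Gap43 is low on both knockout arrays and on knockdown array 2.

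Counted over all members, knockout had 15 of 69 at an unadjusted p under 0.05 (21.7%, 8 higher and 7 lower), where 12.8% of all genes had one, 7.33% higher and 5.5% lower. Arrays did not overlap for 23 members (33.3%, 10 higher and 13 lower), where 28.5% of all genes did not overlap, 13.2% of them higher and 15.3% lower. Knockdown had 11 such members (15.9%, 6 higher and 5 lower) with a background of 14.1%, 7.12% higher and 6.99% lower, and 21 without overlap (30.4%, 14 higher and 7 lower) with a background of 30.5%, 17.5% higher and 12.9% lower. In knockdown the members' share was near the background.

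The median member differed by -0.04 in knockout, against -0.03 over all genes, and by 0.09 in knockdown, against 0.03 over all genes (log2). Members above wild type numbered 28 of 69 in knockout (40.6%, where 42.6% of all genes were) and 47 in knockdown (68.1%, where 56.8% were). Centring each array on its median, which shifts all genes of an array alike, gave 50.7% of members and 54.9% of all genes in knockout, and 62.3% and 49.8% in knockdown.

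With both deficient groups averaged, 12 members had an unadjusted p under 0.05 (17.4%, 6 higher and 6 lower) where 12.3% of all genes had one, 6.48% higher and 5.78% lower. In 8 members (11.6%) all 4 deficient arrays lay to 1 side of all wild-type arrays, where 7.7% of all genes did, 4.15% higher and 3.55% lower. The 4 higher ones were Plxnb2, Plxnd1, Plxna1 and Sema3f, with averaged changes of 0.66 ± 0.121, 1.05 ± 0.268, 0.22 ± 0.087 and 0.32 ± 0.14 (SE, log2; adjusted p of 0.199, 0.259, 0.393 and 0.435). The 4 lower ones were Gap43, Epha1, Robo1 and Sema7a, at -3.51 ± 0.858, -0.77 ± 0.188, -0.86 ± 0.25 and -0.52 ± 0.157 (adjusted p of 0.249, 0.249, 0.294 and 0.3). So 3 of the 4 higher members were plexins and the other a semaphorin, a grouping noticed after the values were seen and not tested. With both arrays numbered 2 of the deficient groups left out, the averaged changes were 0.49 for Plxnb2, 0.80 for Plxnd1, 0.18 for Plxna1 and 0.41 for Sema3f. The same setting gave -2.67 for Gap43, -0.60 for Epha1, -0.84 for Robo1 and -0.43 for Sema7a. These directions could not turn, because the 8 members were picked for having all 4 deficient arrays to 1 side of all wild-type arrays. With 1 array left out, the averaged change was as low as 0.18 for Sema3f (without knockout array 1) and 0.14 for Plxna1 (without wild-type array 1).

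**Figure D3:**
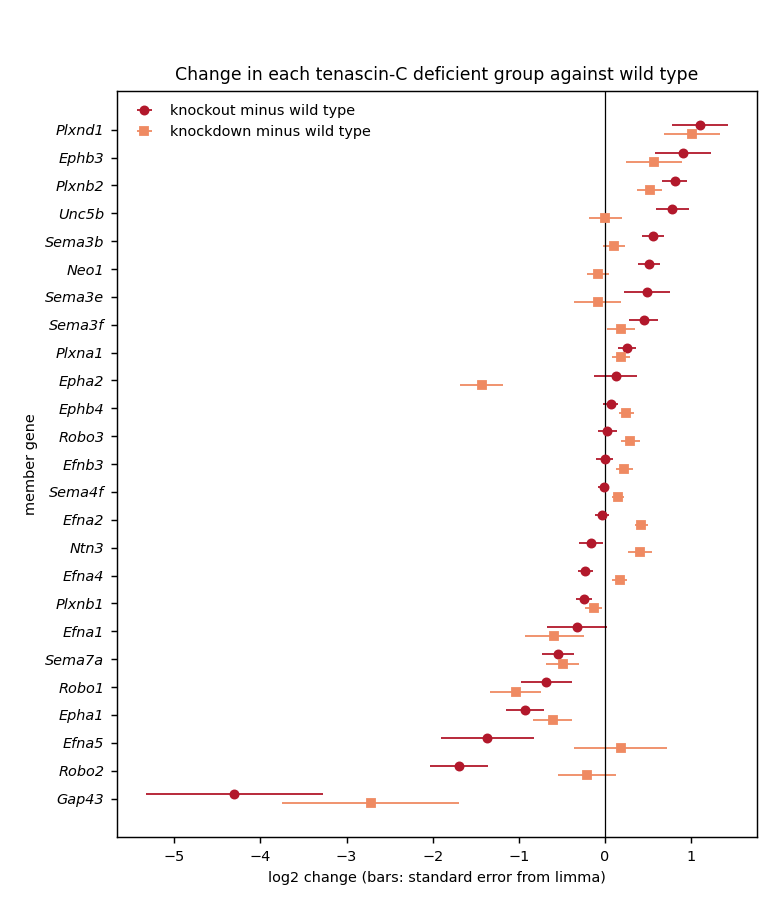
Log2 change against wild type (horizontal axis) in knockout and in knockdown for the named members, with bars for the standard error of the limma fit. Both groups use the same 3 wild-type arrays; Gap43 is farthest to the left, and Epha2 and Robo2 show a low value in 1 group and a value near 0 in the other.

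Knockout was also compared with knockdown directly, which tests whether the 2 differences from wild type are unequal and does not use the wild-type levels. No member passed. Epha2 came closest, at 1.55 ± 0.273 (SE, log2, knockout minus knockdown; adjusted p = 0.0865), with all knockout arrays above all knockdown arrays. Unc5b (0.78 ± 0.21, adjusted p = 0.164), Neo1 (0.59 ± 0.141, adjusted p = 0.139) and Sema3b (0.45 ± 0.139, adjusted p = 0.189) lay higher in knockout.

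Lower in knockout than in knockdown were Robo2 (-1.48 ± 0.367 SE, adjusted p = 0.143), Efna2 (-0.46 ± 0.086, adjusted p = 0.0936), Ntn3 (-0.57 ± 0.158, adjusted p = 0.168), Efna5 (-1.55 ± 0.593, adjusted p = 0.26) and Sema6a (-0.99 ± 0.294, adjusted p = 0.181). Sema3d, a secreted semaphorin, had the largest gap, with log2 signals of 4.67 and 4.70 in knockout, 6.00 and 7.98 in knockdown and 5.83, 7.55 and 5.67 in wild type. It was low on both knockout arrays and uneven among the rest, and its knockout minus knockdown difference was -2.30 ± 0.83 (adjusted p = 0.24). Gap43 differed by -1.58 ± 1.12 (adjusted p = 0.476), which became 0.29 without knockdown array 1. With 1 array left out, the knockout minus knockdown difference was -0.61 for Efna5 (without knockout array 1), and -0.36 for Ntn3 and -1.31 for Sema3d (both without knockdown array 2).

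At an unadjusted p under 0.05 stood 11 members (15.9%, 4 higher and 7 lower in knockout), where 17.9% of all genes did, 9.05% higher and 8.87% lower. Arrays did not overlap for 35 members (50.7%, 8 higher and 27 lower), where 45.0% of all genes did not, 17.8% higher and 27.2% lower. Higher in knockout, by any amount, were 33.3% of members and 40.4% of all genes as deposited, and 43.5% and 54.6% with each array centred on its median.

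Guidance genes also varied between clones of the same group. A range over 1 log2 unit within at least 1 group was seen in 13 of 69 members (18.8%), against 4.67% of all genes tested. In knockout these were Efna5, Efnb1 and Sema6d, in knockdown Epha4, Gap43, Plxnc1, Sema3c and Sema3d, and in wild type Efna1, Epha3, Plxna2, Robo2, Sema3a and Sema3d. The median range over members was 0.243 in knockout, 0.236 in knockdown and 0.312 in wild type, against 0.156, 0.141 and 0.212 over all genes tested. A range over the 3 wild-type arrays tends to be wider than over the 2 of a deficient group. The ranges and their counts are therefore to be compared with all genes, not between groups.

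Epha3, an ephrin-A receptor, was high on knockdown array 2 (6.31) and wild-type array 2 (6.85), and lay between 4.87 and 5.32 on the other 5 arrays. Sema3d was highest on the same 2 arrays. Plxnc1, the receptor of Sema7a, stood at 6.03 on knockdown array 2 and between 4.29 and 4.86 elsewhere. Sema6d, on chromosome 2, stood at 6.54 on knockout array 2, the array with high Xist, and between 4.95 and 5.59 elsewhere. A link between the 2 was not tested.

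**Figure D4:**
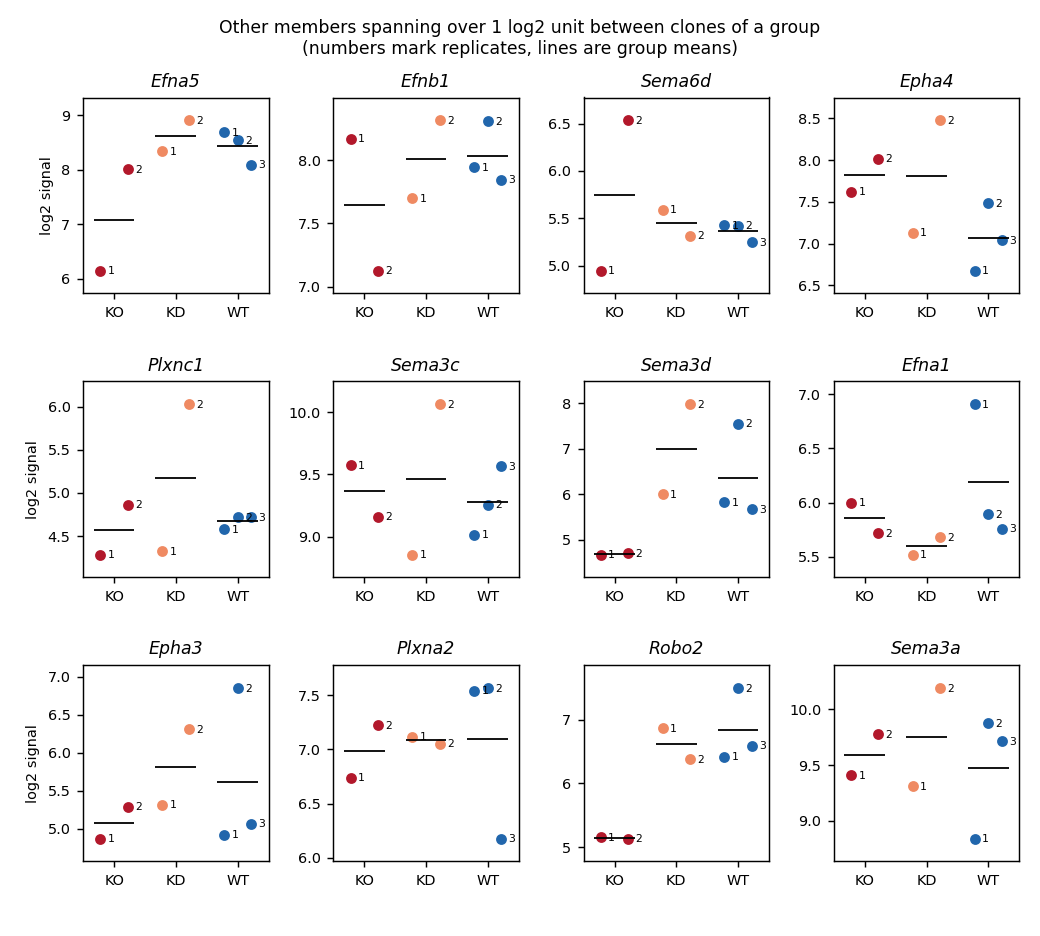
Log2 signal (vertical axis) of the members whose clones ranged over more than 1 log2 unit in at least 1 group, other than Gap43 (KO knockout, KD knockdown, WT wild type); numbered points are clones and bars are group means. Sema3d and Epha3 are high on knockdown clone 2 and wild-type clone 2, and Efna5 is low on knockout clone 1.

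Genes downstream of the receptors were described from a list of guidance effectors, the kinases, GTPases and actin regulators through which the receptors act. Of 59 tested, none passed in any comparison; 9 had an unadjusted p under 0.05 in knockout (7 higher, 2 lower) and 10 in knockdown (6 higher, 4 lower), which is 15.3% and 16.9%, where 12.8% and 14.1% of all genes had one. The median change was 0.04 in knockout and -0.04 in knockdown. Rnd1, a GTPase that binds plexins, stood at 8.28 and 8.46 in knockout and 6.50 and 6.54 in knockdown, against 6.49, 7.09 and 7.75 in wild type. It was higher in knockout by 1.26 ± 0.339 (SE, log2, adjusted p = 0.22) and exceeded knockdown by 1.85 (adjusted p = 0.105). Nck2, an adaptor of Eph and netrin signalling, differed by 0.36 ± 0.086 in knockout (adjusted p = 0.188). With both deficient groups averaged, Sdcbp, the ephrin-B binding adaptor syntenin, differed by -0.39 ± 0.115 (adjusted p = 0.298). Between knockout and knockdown, the kinase Pak2 differed by 0.57 ± 0.102 (adjusted p = 0.0875) and Evl, of the Ena/VASP actin regulators, by -0.48 ± 0.091 (adjusted p = 0.0929).

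A second list held other cues, co-receptors and regulators. Of 46 tested, none passed in any comparison; 11 had an unadjusted p under 0.05 in knockout (4 higher, 7 lower) and 5 in knockdown (2 higher, 3 lower), which is 23.9% and 10.9%, where 12.8% and 14.1% of all genes had one, with median changes of -0.04 and 0.05. Met, the receptor of hepatocyte growth factor, had log2 signals of 9.16 and 9.00 in knockout and 8.54 and 8.54 in knockdown, against 9.65, 9.17 and 9.46 in wild type, a knockdown change of -0.89 ± 0.148 (SE, adjusted p = 0.129). Gas1, a Hedgehog co-receptor, was lower in knockout (-0.51 ± 0.119, adjusted p = 0.181) and higher in knockdown (0.54 ± 0.119, adjusted p = 0.176), and its difference between them was -1.04 (adjusted p = 0.0511). In knockout Ptprd, a receptor phosphatase, differed by -0.87 ± 0.201 (adjusted p = 0.175), and Vegfa, a neuropilin ligand, by 0.65 ± 0.154 (adjusted p = 0.181). Hgf, the ligand of Met, differed between knockout and knockdown by -2.24 ± 0.656 (adjusted p = 0.178).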

How the data were processed

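Expression was measured on 7 arrays, and 1 table deposited by the authors holds a log2 signal per probe set and array. Its log2 scale was read from its values, 1.81 to 13.68. The authors used R 2.8.0 and affy, per the submitters' processing notes; how probe sets were summarised and normalized is not given in the sources used here. Of 34760 probe sets, 21640 had a single gene symbol (19937 genes); the probe set with the highest mean was used per gene. The filter kept 16801 genes, those that exceeded an array's 25th percentile on 2 or more arrays. A mean per group was fitted by limma 3.58.1 (R 4.3.3) to the 7 arrays, using lmFit and eBayes (4 residual and 2.06 prior degrees of freedom). Tests were two-sided, with Benjamini-Hochberg adjustment over all genes tested and a threshold of 0.05. A self-test on simulated data for knockout against wild type (16846 genes) called 62.9% of genes changed by 1 log2 unit, 92.5% at 2 and 96.6% at 4. The changed genes were drawn from those with a mean log2 signal over 7, with normally distributed noise, so recovery at lower signals was not tested.

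The members and lists were chosen with earlier results of these data known. Named were Tnc, up to 8 members each way per comparison by smallest unadjusted p among those whose arrays did not overlap, the member of smallest p of any role group without one, and the 2 genes of smallest p of each pathway list without a call; other members are named to describe their role group or the spread between clones, chosen after their values were seen. Marker lists are described mainly by their levels and counts. Not every marker, pathway gene or value the rule selects is printed, and 1 effector gene is not reported here. Alternatives were no filter, a stricter filter at the array median, quantile normalization, median centring, array weights, an intensity trend, averaged probe sets, the compared groups alone, a replicate block, leaving out each array, and leaving out both arrays numbered 2. Promoters are from RefSeq GRCm38.p6. Replicate numbers were not treated as pairs in the main fit. After group means were removed, same-numbered arrays correlated between -0.074 and 0.199. With 2 arrays in knockout and in knockdown, their deviations from the group mean mirror each other, so these correlations cannot exclude pairing.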

Additional observations from a re-analysis of the deposited data

Results flagged for a closer look

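Efna4, which encodes a ligand of EphA receptors, lay on opposite sides of wild type in the deficient groups. Its log2 signal was 6.68 and 6.45 on the knockout arrays and 6.98 and 6.95 on the knockdown arrays, against 6.79 on each of the 3 wild-type arrays. Both knockout arrays thus lay below, and both knockdown arrays above, all wild-type arrays. The 3 wild-type arrays held the same value (6.791, a range of 0.0), so a difference of any size counted as lying apart. The change was -0.23 ± 0.089 in knockout (SE, adjusted p = 0.373; -0.11 without knockout array 2) and 0.17 ± 0.089 in knockdown (adjusted p = 0.461), and neither passed. The knockout minus knockdown difference was -0.397 ± 0.097 (SE, log2), and its limma adjusted p of 0.143 did not pass the threshold. The wild-type arrays are shared by both comparisons.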

How the results depend on the processing

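Each group held 2 or 3 clones, and the call of a change of 1 log2 unit was missed for part of the genes in the data simulated for knockout against wild type. No member was called in knockdown against wild type or in the averaged comparison under any alternative run. Leaving out single arrays gave 0 to 1 called members in knockout against wild type and 0 to 1 in knockout against knockdown (Sema3e without knockout array 1, Efna3 without knockout array 2). The members at an unadjusted p under 0.05 ranged from 9 to 17 in knockout, 4 to 16 in knockdown (4 without knockdown array 2, 6 without wild-type array 1 and 5 without wild-type array 2), and 8 to 14 in the averaged comparison. For knockout against knockdown the count was 17 with both arrays numbered 2 left out, and 9 to 16 with single arrays left out. Directions turned for Nrp1 in knockout (-0.024 without knockout array 2, and with both arrays numbered 2 left out; 0.65 without knockout array 1), Unc5a in knockdown (-0.03 without knockdown array 2, and with both arrays numbered 2 left out; 0.286 without knockdown array 1), Plxna1 in knockout against knockdown (-0.006 after quantile normalization) and Gap43 in knockout against knockdown (0.289 without knockdown array 1, -3.455 without knockdown array 2); the cause was not tested. With the replicate block, which pairs arrays by number alone, 0 members were called in each comparison and 13, 9, 10 and 12 members had an unadjusted p under 0.05 in knockout, knockdown, the averaged comparison and knockout against knockdown. Tnc lost its call in 11 of 17 alternatives in each deficient group.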
